A study of Mus musculus with 9 samples.

Results

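The regions described here are 600 bp windows of nascent transcription that lie inside long genes of mouse embryonic stem cells. A window was taken where its centre fell inside a RefSeq protein-coding gene of at least 100 kb on mm10 and more than 1 kb from the end of any protein-coding, lncRNA or transcribed pseudogene. This gave 32495 of 174289 regions (18.6%), spread over 2064 of the 2428 protein-coding genes of that length. Their median distance to the nearer end of the host gene was 52 kb, and the largest was 1125 kb. Chromosome 17 had only 1128 regions in the deposited list, of which 98 were taken here. The lack of a region in a long gene there was therefore not read as silence. Where several such genes held a window, which was so for 162 regions, the shortest was taken as the host.

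Precision nuclear run-on sequencing (PRO-seq) was run on 9 libraries, 3 at each of 0, 15 and 30 min of doxycycline. All 3 groups were the same mouse embryonic stem cells, in which the lncRNA gene Firre was knocked out and a Firre transgene could be switched on with doxycycline. The drug was given at 1 ng/µL in the 15 and 30 min groups and was absent (0 ng/µL) in the 0 min group. The cells were kept in serum medium with LIF, the MEK inhibitor PD0325901 and the GSK3 inhibitor CHIR99021, and their nuclei were mixed with 1% nuclei of Drosophila S2 cells. Reads of the fly nuclei were not analysed here, so every change is relative to the other mouse regions. No group received the drug without the transgene, so the effects of the drug and of Firre RNA cannot be told apart. The labels do not say whether replicates came from separate cultures, so a p-value here reflects only the spread among the libraries. These are bulk libraries, in which a change in few cells and a smaller change in many cannot be told apart.

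In PRO-seq, engaged RNA polymerases add a biotin-labelled nucleotide in isolated nuclei, so reads mark where polymerase is on the DNA and not how much RNA has gathered. Polymerase II starts at a promoter, pauses a short way downstream, is released by the kinase P-TEFb and then moves through the gene body. In a gene of 100 kb and over polymerase takes long to cross, so a wave of release or of arrest reaches the start, the middle and the end of the gene at different times. Regions inside such genes can hold enhancers and alternative promoters, which fire in both directions, and they also collect reads of polymerase passing through the host. A window count does not separate these sources.

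Some windows lay over an annotated start within the host gene, and the sequences in front of such starts are shown because the median change of these windows at 15 min had the opposite sign to that of the others. Each sequence is the 200 bases before the start, 5′ to 3′ on the strand of the gene, from RefSeq on GRCm38.p6, with CG dinucleotides in capitals. The first 4 belong to the starts whose windows had the smallest adjusted p among those lower at 15 min. The last pair belongs to the starts with the most reads among those not called.
Pan3: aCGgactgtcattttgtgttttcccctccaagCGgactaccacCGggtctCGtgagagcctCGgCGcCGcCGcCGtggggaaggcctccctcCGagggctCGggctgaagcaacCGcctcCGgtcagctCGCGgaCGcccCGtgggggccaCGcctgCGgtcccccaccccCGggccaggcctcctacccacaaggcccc
Prkag2: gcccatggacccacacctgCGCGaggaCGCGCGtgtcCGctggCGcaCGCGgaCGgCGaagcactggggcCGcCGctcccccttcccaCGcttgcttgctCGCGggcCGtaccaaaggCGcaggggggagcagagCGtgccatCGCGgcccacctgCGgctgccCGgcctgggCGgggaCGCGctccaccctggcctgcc
Nhsl1: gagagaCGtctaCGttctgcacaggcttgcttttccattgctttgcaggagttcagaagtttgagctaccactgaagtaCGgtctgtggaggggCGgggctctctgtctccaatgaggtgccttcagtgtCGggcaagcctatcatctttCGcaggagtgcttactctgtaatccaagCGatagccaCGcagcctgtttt
Rreb1: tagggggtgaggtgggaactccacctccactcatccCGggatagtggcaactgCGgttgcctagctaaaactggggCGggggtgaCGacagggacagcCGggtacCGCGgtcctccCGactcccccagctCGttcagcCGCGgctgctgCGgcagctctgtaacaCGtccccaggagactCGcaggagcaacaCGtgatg
Sgk1: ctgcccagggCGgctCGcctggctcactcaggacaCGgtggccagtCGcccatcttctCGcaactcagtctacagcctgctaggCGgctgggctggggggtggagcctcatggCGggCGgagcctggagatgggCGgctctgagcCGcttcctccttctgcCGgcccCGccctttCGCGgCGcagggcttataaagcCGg
Arhgef18: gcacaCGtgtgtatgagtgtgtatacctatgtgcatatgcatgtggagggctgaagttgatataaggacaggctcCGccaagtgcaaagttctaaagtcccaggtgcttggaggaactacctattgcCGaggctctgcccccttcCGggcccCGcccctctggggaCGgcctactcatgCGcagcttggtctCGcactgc
They lie at chr5:147429956-147430155 (plus strand), chr5:24908510-24908709 (minus strand), chr10:18407475-18407674 (plus strand), chr13:37825838-37826037 (plus strand), chr10:21994466-21994665 (plus strand) and chr8:3392808-3393007 (plus strand). Pan3 encodes a subunit of a poly(A) nuclease, Prkag2 a regulatory subunit of the energy sensor AMPK, Nhsl1 an actin regulator and Rreb1 a zinc finger transcription factor. Sgk1 encodes a serine/threonine kinase and Arhgef18 a guanine nucleotide exchange factor.

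Total counts over all regions were between 3813365 and 5980366 per library. The 8 windows at Firre held 2.54, 4.97 and 2.62 CPM (read counts scaled to the library total) at 0 min, 275, 337 and 266 CPM at 15 min, and 804, 772 and 776 CPM at 30 min, so the labels matched the induction. Windows at the stem cell genes Nanog, Sox2, Esrrb, Tbx3 and Prdm14 held at least 102 CPM in each library. The lowest values at Klf4, Zfp42, Tfcp2l1 and Lifr were 41.4, 50, 54.7 and 71.6 CPM, and Tet1 had no window. Those at Myod1, a muscle gene, held at most 0.678 CPM and those at Gata6, an endoderm gene, at most 2.48 CPM. Windows at the lineage genes Gata4 and Pax6 did have reads, from 10.5 to 15.4 CPM and from 12 to 26.7 CPM. So did those at Sox17 and Neurod1, from 7.97 to 14.7 CPM and from 6.6 to 14.4 CPM, while Foxa2, T, Krt5 and Alb had no window. Replicates varied by more than counting error, with a chi-squared statistic per degree of freedom of 2.86, 3.01 and 2.48 at 0, 15 and 30 min.

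The regions inside long genes were dim. Their median count, summed over the 9 libraries, was 21, and 188 had no read in any library. A filter on low counts left 7276 (22.4%) for testing, against 33.2% of the other regions, and these lay in 1689 hosts, of which 416 had 1 tested region and 147 had 10 or more. The tested ones had a median summed count of 168, against 255 for all tested regions and 592 for those at gene ends. The counts below do not describe the untested regions.

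At 15 against 0 min, 269 of the 7276 tested regions inside long genes rose and 114 fell (edgeR quasi-likelihood test, Benjamini-Hochberg adjusted p under 0.05 over all 54299 tested regions). That is 3.7% higher and 1.57% lower, beside 4.29% higher and 3.96% lower among all tested regions. Scaling on gene ends gave 496 higher and 45 lower. In either direction 383 were called (5.26%), against 8.25% of all tested regions. The higher calls lay in 208 hosts and the lower calls in 91, and 12 hosts had both. The median log2 change was 0.12, against 0.02 over all tested regions. Called regions were mostly the brighter ones: 8.91% of those with a mean count over 50 rose, against 1.61% of those under 20. Leaving out 0 min library 1 or 3 left 173 or 222 calls, and leaving out 15 min library 1 or 2 left 175 or 167.

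At 30 against 0 min, 78 regions inside long genes rose and 9 fell, 1.2% of those tested, against 1.74% of all tested regions (1.24% higher and 0.497% lower). Their median log2 change was 0.06. Leaving out 0 min library 1 or 3 left 13 or 41 calls, leaving out 30 min library 1, 2 or 3 left 22, 32 or 25, and leaving out 15 min library 3 gave 145. At 30 against 15 min, 7 rose and 18 fell, against 0.704% of all tested regions called (0.214% higher and 0.49% lower), with a median of -0.05. It was 8 or 9 on leaving out 15 min library 1 or 2, and 7, 6 or 11 on leaving out 30 min library 1, 2 or 3. The comparisons with 0 min share the same 3 libraries, and the last comparison shares its 15 and 30 min libraries with them.

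Regions of the other classes were set beside them. Regions inside genes under 20 kb were higher in 3.41% and lower in 8.58% of tests at 15 against 0 min, with a median log2 change of -0.17. Those inside genes of 20 to 100 kb were higher in 3.5% and lower in 3.67%, with a median of -0.04, and those outside genes were higher in 6.71% and lower in 1.4%, with a median of 0.21. Those at gene ends were higher in 1.81% and lower in 8.04%, with a median of -0.16, and those inside non-coding genes only were higher in 5.4% and lower in 2.5%, with a median of 0.14, close to the 0.12 inside long genes. The reads in regions inside long genes, divided by those in regions inside genes under 20 kb, gave 1.44, 1.49 and 1.42 at 0 min, 1.77, 1.78 and 1.62 at 15 min, and 1.6, 1.59 and 1.63 at 30 min. Every 15 and every 30 min library was above every 0 min library. The exact two-sided permutation test gave p = 0.1 for each of these comparisons with 0 min (Benjamini-Hochberg adjusted p = 0.162 over 21 tests of library values), the smallest p that 3 against 3 libraries allow. Divided by the reads outside genes, the same sum gave 0.349, 0.333 and 0.338 at 0 min, 0.324, 0.319 and 0.331 at 15 min, and 0.324, 0.331 and 0.324 at 30 min, so it was lower in each 15 and 30 min library (exact p = 0.1, adjusted 0.162). Divided by the reads at gene ends it gave 0.161, 0.178 and 0.171 at 0 min, 0.191, 0.209 and 0.175 at 15 min, and 0.192, 0.184 and 0.186 at 30 min. The 15 and 0 min groups overlapped (exact permutation p = 0.2, adjusted 0.263), and the 30 and 0 min groups did not (p = 0.1, adjusted 0.162).

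The changes differed with distance to the nearer end of the host gene. At 15 against 0 min the median log2 change was -0.10 at 1 to 5 kb, 0.04 at 5 to 10 kb, 0.10 at 10 to 25 kb, 0.09 at 25 to 50 kb, 0.11 at 50 to 100 kb and 0.26 over 100 kb. Regions called lower made up 3.67% of the 708 tested at 1 to 5 kb and 0.755% of the 1589 tested over 100 kb. Regions called higher peaked elsewhere, at 8.07% (33 of 409) in the 5 to 10 kb bin, against 2.32% at 25 to 50 kb and 4.09% over 100 kb. These shares moved with single libraries. The lower share at 1 to 5 kb was 1.57% or 1.98% with 0 min library 1 or 3 left out, 1.29%, 1.42% or 8.76% with 15 min library 1, 2 or 3 left out, and on leaving out 0 min library 1 or 15 min library 2 it was below that at 5 to 10 kb (1.72% and 1.99%). The higher share over 100 kb was 1.4% or 1.89% with 0 min library 1 or 3 left out and 1.66% or 1.33% with 15 min library 1 or 2 left out, and that at 5 to 10 kb was 5.17% with 0 min library 1 left out. Over these omissions the lower share over 100 kb lay between 0.191% and 1.13%. The same bins gave medians of -0.07, 0.05, 0.06, 0.02, 0.06 and 0.15 at 30 against 0 min. When libraries were scaled on regions at gene ends, the median of all tested regions moved to 0.18 at 15 against 0 min, and the 1 to 5 kb median became 0.06 and the median over 100 kb 0.41, so the first changed sign while their order held. With that scaling 1.69% were called lower at 1 to 5 kb and 9% higher over 100 kb.

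**Figure D1:**
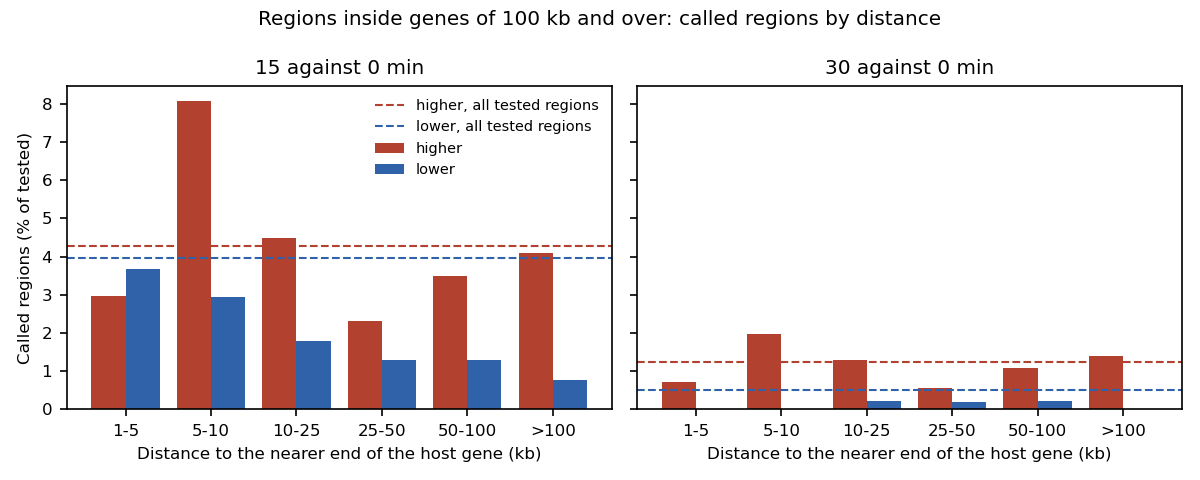
Percentage of tested regions inside genes of 100 kb and over that were called higher (red) or lower (blue), by distance to the nearer end of the host gene in kb, at 15 against 0 min (left) and 30 against 0 min (right); dashed lines give the share of all tested regions. At 15 min the higher share is largest at 5 to 10 kb (8.07%) and the lower share is 3.67% at 1 to 5 kb and 0.755% over 100 kb.

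The sums over all regions of a bin, tested or not, did not follow the order of the medians throughout. The 4 bins between 5 and 100 kb had 15 min means 7.25% to 9.23% above 0 min with no overlap of the groups, and the highest of these was at 5 to 10 kb. Regions over 100 kb from both ends summed to 17639, 18295 and 16668 CPM at 15 min, against 14544, 15509 and 14739 CPM at 0 min, a mean 17.4% above, and the groups did not overlap. At 30 min they summed to 16311, 16831 and 16793 CPM, 11.5% above the 0 min mean, again with no overlap. Regions at 1 to 5 kb summed to 9016, 9253 and 10202 CPM at 15 min, against 9827, 9492 and 10170 CPM at 0 min, and these groups overlapped.

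The ratio of the far to the near sum within a library does not depend on its scaling. It was 1.48, 1.63 and 1.45 at 0 min, 1.96, 1.98 and 1.63 at 15 min, and 1.74, 1.72 and 1.74 at 30 min. The 15 min group overlapped with 0 min because 15 min library 3 was as low as 0 min library 2 (exact permutation p = 0.2, adjusted 0.263), while each 30 min library was above each 0 min library (p = 0.1, adjusted 0.162). Measured from the annotated start, where the strand of the host was known, the ratio of regions over 200 kb to those at 1 to 15 kb was 1.44, 1.53 and 1.41 at 0 min, 1.88, 1.85 and 1.61 at 15 min, and 1.67, 1.65 and 1.66 at 30 min. Both later groups lay above 0 min with no overlap (exact permutation p = 0.1 for each, adjusted 0.162).

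**Figure D2:**
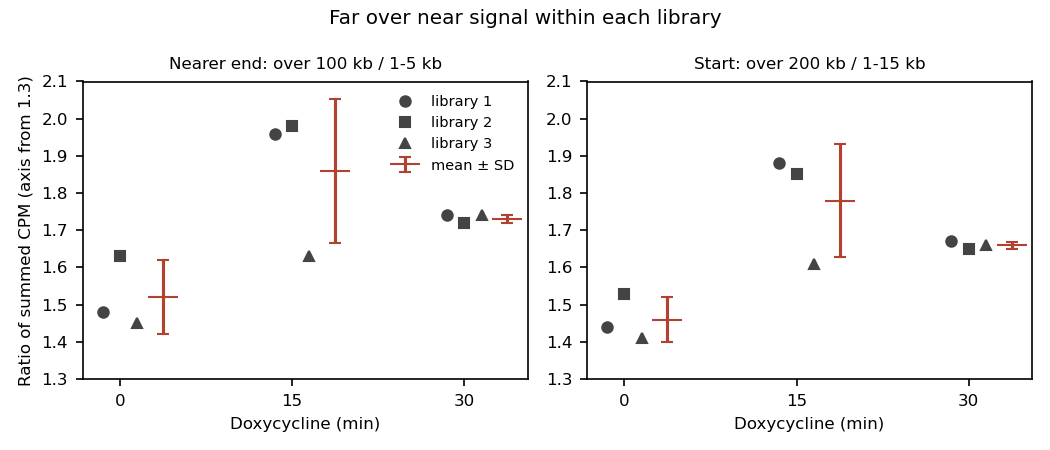
Summed CPM of regions far from an end of the host gene over the sum of those near it, per library (points; circle, square and triangle for libraries 1, 2 and 3) with the group mean and SD (red, n = 3), at 0, 15 and 30 min of doxycycline. Left, by the nearer end (over 100 kb against 1 to 5 kb); right, by the start (over 200 kb against 1 to 15 kb). The 15 min libraries 1 and 2 are highest on the left (1.96 and 1.98), 15 min library 3 stands at 1.63, and the 30 min libraries lie together at 1.72 to 1.74.

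The strand of the host was known for 75.7% of the regions, and it separated the start of the gene from its end. From the start, the median log2 change at 15 against 0 min was -0.13 at 1 to 15 kb, -0.02 at 15 to 30 kb, 0.08 at 30 to 60 kb, 0.11 at 60 to 100 kb, 0.18 at 100 to 200 kb and 0.21 over 200 kb. Scaling on gene ends turned the first of these to 0.03 and the last to 0.37. At 30 against 0 min the medians at 1 to 15 kb and over 200 kb were -0.06 and 0.13. From the end, the largest share called higher was next to it: 39 of 466 regions at 1 to 15 kb rose at 15 against 0 min (8.37%), then 5.88% at 15 to 30 kb and between 2.32% and 3.97% beyond. Leaving out 0 min library 1 or 3 made the first share 5.02% or 5.58%, and leaving out 15 min library 1 or 2 made it 5.26% or 5.88%. Of the same 466 regions, 10 fell at 30 against 15 min (2.15%), beside 0.49% of all tested regions. This count was 6 with 15 min library 1 or 2 left out and 5 or 4 with 30 min library 1 or 2 left out.

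**Figure D3:**
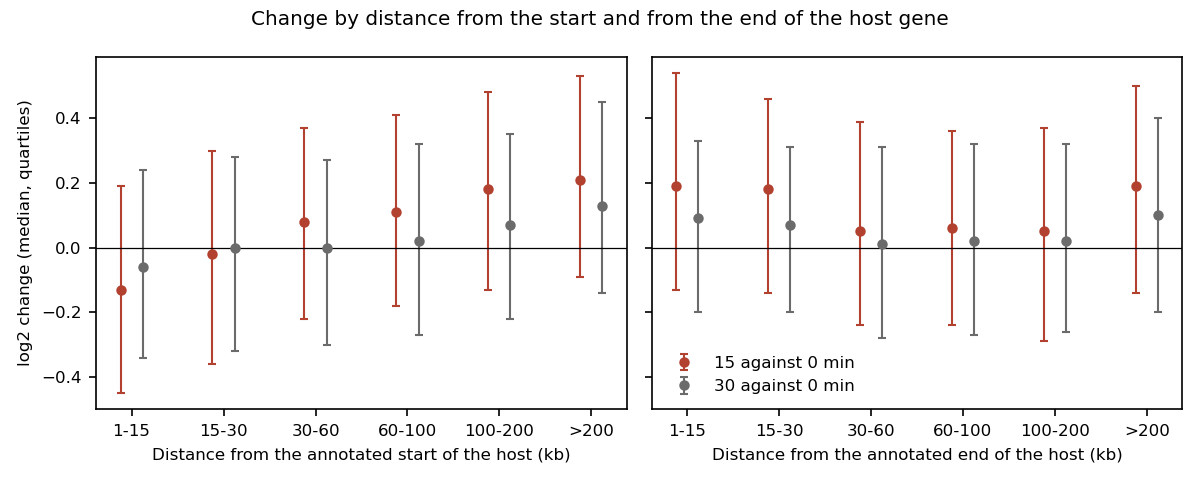
Median log2 change (points) with the quartiles (bars) of tested regions inside genes of 100 kb and over, at 15 (red) and 30 (grey) against 0 min, by distance in kb from the annotated start (left) and end (right) of the host gene. From the start the 15 min medians go up in order, -0.13 in the nearest bin and 0.21 in the farthest; with scaling on gene ends the nearest is 0.03. From the end they are 0.19 in both the nearest and the farthest bin and 0.05 or 0.06 between 30 and 200 kb.

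The hosts were also divided by length. At 15 against 0 min the median log2 change was 0.04 in hosts of 100 to 150 kb, 0.07 at 150 to 200 kb, 0.08 at 200 to 300 kb, 0.16 at 300 to 500 kb and 0.25 over 500 kb. In the last class 67 of 1203 regions rose (5.57%) and 1 fell (0.0831%). Distance from an end and host length are tied, since a region can be over 100 kb from both ends only in a host of more than 200 kb, so the bins were repeated within hosts of at least 200 kb. There the medians from the start were -0.08, 0.02, 0.10, 0.10, 0.20 and 0.21 at 15 against 0 min, in the same order of distance, over 203 tested regions in the nearest bin and 1449 in the farthest. At 30 against 0 min the nearest and the farthest bin had -0.02 and 0.13. In 256 hosts with at least 5 tested regions and a tested window within 1 kb of their annotated start, the regions inside the gene had a median log2 change of 0.15 at 15 against 0 min and the start windows one of -0.32. The inner median was above the start window in 224 of these hosts (87.5%) at 15 against 0 min and in 201 (78.5%) at 30 against 0 min.

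Several of the 8 largest rises at 15 min were lower again at 30 min. These regions were chosen for high values in the 15 min libraries. The test of 30 against 15 min uses the same libraries, so the choice favours such a fall. Eml6 encodes a microtubule-associated protein of the EMAP family. Its region at chr11:29762917-29763516, 20.2 kb before the end of the host (minus strand), held 1.06, 3.58 and 1.05 CPM (0 min), 21.8, 24.8 and 15.3 CPM (15 min) and 4.37, 6.52 and 7.82 CPM (30 min). All 15 min libraries were above all others, and the log2 change was 3.45 ± 0.34 (SE, edgeR adjusted p = 3.17e-07) at 15 against 0 min and -1.75 ± 0.28 (adjusted p = 0.000926) at 30 against 15 min. It was also called higher at 30 against 0 min (1.70 ± 0.39, edgeR adjusted p = 0.0216), a call lost on leaving out 0 min library 1 or 3 or 30 min library 2 or 3. Sptb encodes a beta spectrin of the membrane skeleton, and its region at chr12:76587579-76588178 lay 7.39 kb before the end. It held 2.3, 5.6 and 6.82 CPM (0 min), 20.7, 24.2 and 22.6 CPM (15 min) and 6.92, 9.32 and 10.2 CPM (30 min). The change was 2.25 ± 0.27 at 15 against 0 min (adjusted p = 6.65e-06) and -1.36 ± 0.24 at 30 against 15 min (adjusted p = 0.00312), the second of which was lost without 30 min library 1 (highest adjusted p = 0.0512).

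Arhgef26 encodes a guanine nucleotide exchange factor, and its region at chr3:62455853-62456452, 6.07 kb before the end (plus strand), was the brightest of this kind. It held 13.6, 25.1 and 22 CPM (0 min), 60.8, 74.7 and 62.4 CPM (15 min) and 31.9, 27.2 and 32 CPM (30 min). It rose by 1.72 ± 0.18 on the log2 scale at 15 against 0 min (edgeR adjusted p = 5.32e-07) and changed by -1.12 ± 0.17 at 30 against 15 min (adjusted p = 0.000445), and both calls held without any single library. Col23a1, a transmembrane collagen, had a region at chr11:51577065-51577664, 6.56 kb before the end, with 3.9, 4.03 and 6.29 CPM (0 min), 15.5, 18.1 and 11.9 CPM (15 min) and 8.75, 4.66 and 6.64 CPM (30 min). It rose by 1.71 ± 0.27 and then changed by -1.19 ± 0.26 (adjusted p = 0.000257 and 0.0197). The second call was lost without 15 min library 1 or 2 and without 30 min library 2 or 3. Sntb1 encodes a syntrophin of the dystrophin complex, and its region at chr15:55883693-55884292 held 8.3 ± 1.51 CPM (0 min), 28 ± 3.05 CPM (15 min) and 16.4 ± 3.08 CPM (30 min) (SD, n = 3 each). It remained above 0 min at 30 min (log2 0.99 ± 0.21, adjusted p = 0.0151), a call lost when 0 min library 1 or 30 min library 1 or 3 was left out.

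Other large rises were still present at 30 min. Armc2, needed for sperm flagella, had a region at chr10:41997110-41997709 with 3.01, 2.69 and 3.15 CPM (0 min), 12, 13 and 11.9 CPM (15 min) and 12.2, 14.5 and 16.6 CPM (30 min). No 0 min library came near the others, and the log2 change was 2.05 ± 0.26 at 15 and 2.28 ± 0.25 at 30 against 0 min (edgeR adjusted p = 1.15e-05 and 7.44e-06). Both calls held without any single library. Snd1 encodes a nuclease-domain protein that binds RNA, and its region at chr6:28902605-28903204 held 2.66, 6.94 and 4.98 CPM (0 min), 18.8, 23.3 and 16.5 CPM (15 min) and 12.2, 9.5 and 11.4 CPM (30 min). It rose by 2.04 ± 0.26 at 15 and by 1.21 ± 0.28 at 30 against 0 min (adjusted p = 1.77e-05 and 0.0221). The last region of the 8 largest rises lay in Fgd4, an exchange factor for Cdc42. It held 2 ± 1.13 CPM (0 min), 6.19 ± 0.927 CPM (15 min) and 4.91 ± 0.874 CPM (30 min) (SD, n = 3 each). Its rise was called at 15 against 0 min (log2 1.65 ± 0.36, edgeR adjusted p = 0.00504) but not at 30 against 0 min (1.33 ± 0.37, adjusted p = 0.066).

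**Figure D4:**
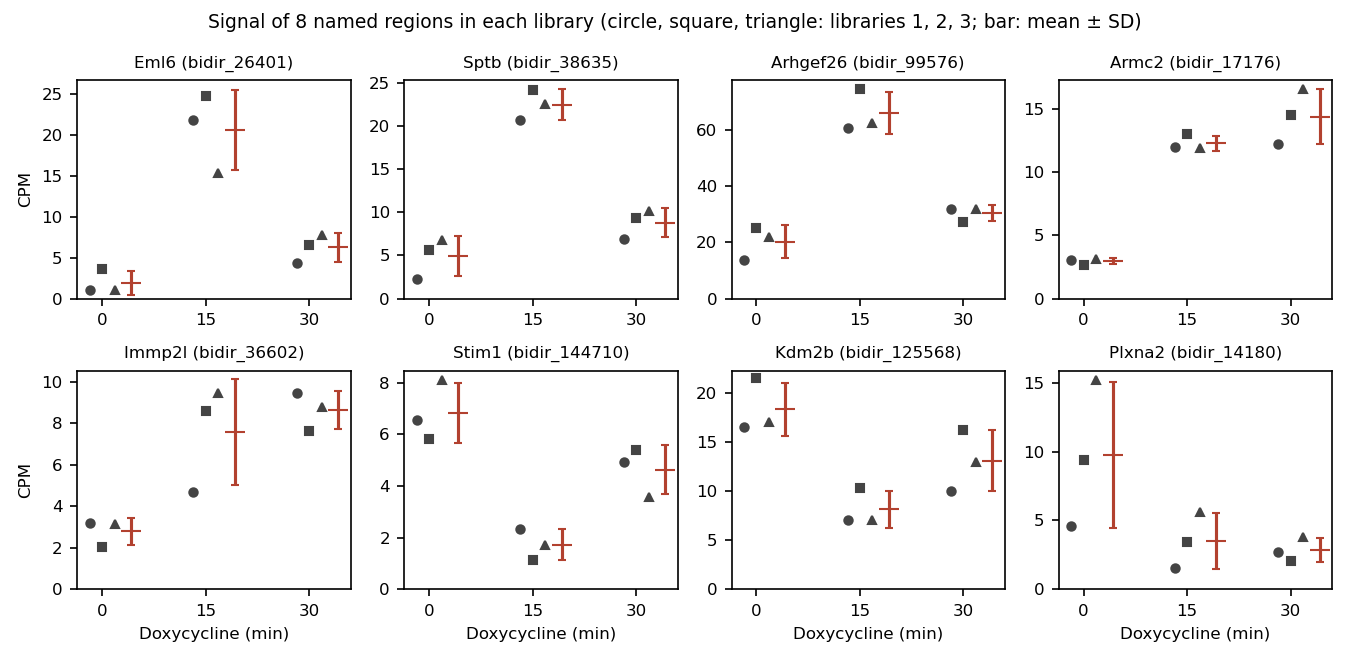
CPM of 8 named regions in each library at 0, 15 and 30 min of doxycycline (circle, square and triangle for libraries 1, 2 and 3) with the group mean and SD (red, n = 3); each axis starts at 0. Eml6, Sptb and Arhgef26 are highest at 15 min, Armc2 and Immp2l are high at 15 and 30 min, Stim1 and Kdm2b are low at 15 min, and Plxna2 is spread from 4.61 to 15.2 CPM at 0 min.

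The 8 largest falls at 15 min included regions near the annotated start of the host. Stim1 encodes the calcium sensor of the endoplasmic reticulum, and its region at chr7:102268516-102269115, 7.3 kb from the start, held 6.55, 5.82 and 8.13 CPM (0 min), 2.33, 1.14 and 1.7 CPM (15 min) and 4.92, 5.4 and 3.56 CPM (30 min). It fell by 1.94 ± 0.35 on the log2 scale at 15 against 0 min (edgeR adjusted p = 0.000829). Kdm2b encodes a CpG-island-binding histone demethylase, and its region at chr5:122987205-122987804, 1.77 kb from the start, held 16.5, 21.5 and 17 CPM (0 min), 7, 10.3 and 7.04 CPM (15 min) and 10, 16.2 and 13 CPM (30 min). It fell by 1.17 ± 0.23 (adjusted p = 0.00194), and both of these calls held without any single library. Regions in Hivep2 (a zinc finger factor; 5.51 kb from the start), Vav2 (a guanine nucleotide exchange factor; 1.88 kb) and Ldlrad4 (a regulator of TGF-beta signalling; 1.19 kb from the nearer end) changed by -1.19, -1.24 and -1.37. Regions in Tmem132b, Zbtb7c and Fam189a1, which lay farther in, changed by -1.36, -1.24 and -1.27. Counting inner starts, the regions in Stim1, Kdm2b and Hivep2 were centred 996, 1003 and 740 bp from the nearest annotated start. The call of Hivep2 was lost without 0 min library 1, that of Ldlrad4 without 0 min library 1 or 15 min library 1, and that of Tmem132b without 0 min library 1 or 15 min library 2. Fam189a1 was lost without 0 min library 3 or 15 min library 1, and Vav2 and Zbtb7c without 0 min library 1 or 3 or 15 min library 1 or 2, and also when libraries were scaled on gene ends. The Vav2 call was also lost with only the compared groups in the fit (edgeR adjusted p = 0.0522).

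At 30 against 0 min the named rises, beside Armc2 and Snd1, were in Immp2l, Trhde (a peptidase that inactivates a releasing hormone), Dtd1 (a deacylase of mischarged tRNA), Meis1 (a homeobox factor), Sulf1 (a sulfatase of heparan sulfate) and Sema5a, with log2 changes between 1.14 and 1.62. Immp2l encodes a peptidase of the inner mitochondrial membrane, and its region at chr12:41387953-41388552, 364 kb from the start, held 3.19, 2.01 and 3.15 CPM (0 min), 4.67, 8.58 and 9.47 CPM (15 min) and 9.47, 7.64 and 8.77 CPM (30 min). That window overlaps another, and reads in both may be shared. The same holds for the named windows in Meis1, Plxna2, Ldlrad4 and Zbtb7c. Sema5a, an axon guidance semaphorin, held 16.9 ± 2.61 CPM at 30 min, against 7.66 ± 0.951 CPM at 0 min (SD, n = 3 each), with 12 ± 0.758 CPM between them at 15 min. The 30 min calls of Armc2 and Immp2l held without any single library, and that of Sema5a was lost without 0 min library 1 or 30 min library 1. The calls of Snd1, Trhde, Dtd1, Meis1 and Sulf1 were lost in 4 to 6 of the 9 omissions of 1 library, 0 min library 1 among them each time. The named falls were in Plxna2 (a semaphorin receptor), Ryr1 (a calcium release channel), Itsn1 (an endocytic scaffold), Gse1, Rreb1, Hk1, Septin9 and Casz1 (a zinc finger factor), between -0.61 and -1.74, and each was lost in 4 to 6 omissions (Plxna2 without 0 min library 3, the others without 0 min library 1). Those of Itsn1, Rreb1, Hk1, Septin9 and Casz1 were also lost with scaling on gene ends (adjusted p = 0.0646 to 0.0925), and DESeq2 gave Ryr1 and Trhde no adjusted p. Hk1, the hexokinase of the first step of glycolysis, differed in course: its region held 21.6, 17 and 17.6 CPM (0 min), 18.8, 19.1 and 19.7 CPM (15 min) and 10.9, 11 and 11.4 CPM (30 min).

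Regions near the end of a host often also lay past the end of a neighbour that runs towards it. This split was made after the rises near host ends had been seen. A facing gene end here is the annotated end of a gene of known strand, coding or not, on the strand opposite to the host and up to 25 kb before the region in the direction of that gene. Of 660 regions past such an end 48 rose at 15 against 0 min (7.27%), against 158 of 4975 others (3.18%) and 4.29% of all tested regions. The share of the others was thus below that of all tested regions. The median log2 changes of those past an end and of the others were close, 0.14 and 0.11. The share was largest at 5 to 15 kb past the facing end, 31 of 311 (9.97%), against 3.12% where none lay within 100 kb. Within 30 kb of the end of the host, 36 of 285 regions past a facing end rose (12.6%), against 26 of 572 others (4.55%). At 30 against 15 min 11 and 2 of them fell (3.86% and 0.35%), beside 0.49% of all tested regions. Both groups had a median log2 change of 0.18 at 15 against 0 min, so the shares called differed and the medians did not. Over 30 kb from the host end the shares at 15 against 0 min were 3.2% and 3%.

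The split was also seen at like brightness: among regions with a mean count over 50, 17.8% of those past a facing end rose, against 7.71% of the others. The number past a facing end called higher was 26 with 0 min library 1 left out, and 31 or 26 with 15 min library 1 or 2 left out. The Eml6 region lay 18.8 kb past the end of Rtn4, an endoplasmic reticulum protein. The Arhgef26 region lay 11.9 kb past Dhx36, a helicase of G-quadruplexes, and the Col23a1 region 22.7 kb past Hnrnpab, an RNA-binding protein. The named falls in Fam189a1, Itsn1, Hk1 and Casz1 also lay past facing ends, by 18.2, 12.1, 20.5 and 3.58 kb. For the Sptb region, a rise, the nearest facing end was 61 kb away. Since the strand that was counted is not given in the sources used here, reads of the host and of the facing gene cannot be told apart.

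**Figure D5:**
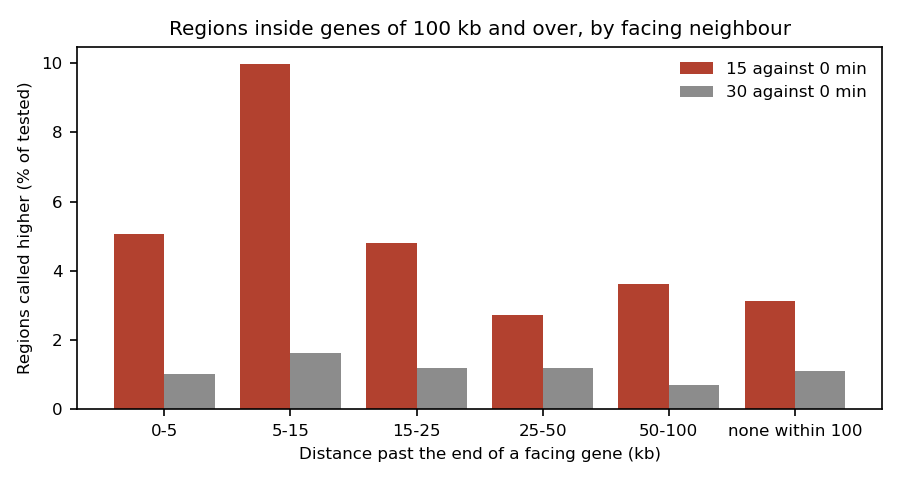
Percentage of tested regions inside genes of 100 kb and over called higher at 15 (red) and 30 (grey) against 0 min, by distance in kb past the annotated end of a gene on the opposite strand. The 15 min share is largest at 5 to 15 kb (9.97%) and is 3.12% where no such end lies within 100 kb, beside 4.29% of all tested regions.

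Windows over an annotated start inside the host had a median change below 0 at 15 min. There were 225 of them among the tested regions, 218 over a start of the host itself. Of these, 10 fell at 15 against 0 min (4.44%), a share near the 3.96% of all tested regions, and 0 rose in edgeR, where 44 had an unadjusted p under 0.05 and 2 of those were higher. DESeq2 called 9, of which 7 were shared, and 0 were higher. Their median log2 change was -0.18, against 0.13 for the 6758 tested regions with no annotated start, and at 30 against 0 min the medians were -0.17 and 0.07. Chromosome 18, for which the RefSeq promoter table held no start, was left out of both groups. The table gave a strand for 79.9% of protein-coding genes and lacked others on the remaining chromosomes too. A window over a start that it lacks was counted as having none. Windows at gene ends, of which 8.04% were called lower, had a like median of -0.16 at 15 against 0 min. Leaving out 0 min library 1 left 2 lower, leaving out 15 min library 1 or 2 left 3 or 2, and leaving out 15 min library 3 gave 30. With scaling on gene ends the median became -0.02 and 2 were called lower.

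The 10 windows lay in Pan3, Prkag2, Nhsl1, Rreb1, Ssh2, Nbeal1, Unc13b, Nav2, Runx1 and Arhgef3, all of which are named because the count is small, after their values were seen. The Pan3 window held 58.8, 41.9 and 47.5 CPM (0 min), 27.5, 25 and 36.2 CPM (15 min) and 38.3, 38 and 40.8 CPM (30 min). Its change was -0.75 ± 0.16 at 15 against 0 min (edgeR adjusted p = 0.00348), with no overlap between the groups. The Prkag2 window, 198 kb from the annotated start of the gene, held 29.9, 21.3 and 23.3 CPM (0 min), 13.3, 10.5 and 16.3 CPM (15 min) and 13.7, 22.2 and 16.4 CPM (30 min) (log2 -0.91 ± 0.21 at 15 against 0 min, adjusted p = 0.00725). The Nhsl1 window held 21.7 ± 1.46 CPM (0 min), 13.6 ± 0.359 CPM (15 min) and 15.6 ± 0.538 CPM (30 min) (SD, n = 3 each). By contrast the Sgk1 window held 168 ± 16.1 CPM at 15 min, against 147 ± 11.6 CPM at 0 min, and the Arhgef18 window 144 ± 19 CPM, against 149 ± 8.11 CPM, and neither was called.

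In the 200 bases before these starts the median number of CG dinucleotides was 20.5 for the 10 that fell and 13 for the 215 not called, against 5 for all 32851 promoters in the RefSeq table. The spread was wide, as the printed sequences show: Nhsl1 fell with 8 and Prkag2 with 26, while Sgk1 with 16 did not pass. The motif TATAAA, sought on both strands, was found in 0 of the 10, in 3.72% of those not called and in 9.96% of all promoters, and Sgk1 was among those that hold it. These are descriptions of the letters in a fixed window and were not tested. The 32851 promoters were counted whether or not they had reads in these cells, so they are not a like set to the tested starts.

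The hosts were also described by role, with 7 lists of long genes. Their shares at 15 against 0 min stand beside 3.7% higher and 1.57% lower for all tested regions inside long genes and 4.29% and 3.96% for all tested regions. The signalling list (receptors, kinases and phosphodiesterases) had 10 regions higher (7.46%) and 1 lower (0.746%) of 134 tested, with a median log2 change of 0.23. Pde4d, a phosphodiesterase that breaks down cAMP, had the smallest p, at chr13:109778380-109778979, 1125 kb from the start, with 7.79, 10.7 and 11 CPM (0 min), 20.8, 24.6 and 16 CPM (15 min) and 18.6, 18.5 and 19.9 CPM (30 min). Each later library was above each 0 min library, with log2 changes of 1.08 ± 0.21 at 15 and 0.96 ± 0.21 at 30 against 0 min (edgeR adjusted p = 0.00162 and 0.0157). The second call was lost on leaving out 0 min library 1 or any one of the 30 min libraries. Regions in Lifr, the receptor of LIF, and Ptprg, a receptor tyrosine phosphatase, rose by 0.98 and 0.70 at 15 against 0 min. The Lifr region held 10.5, 10.5 and 13.1 CPM (0 min), 21, 26.1 and 19.7 CPM (15 min) and 15.3, 17.9 and 15.4 CPM (30 min).

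The cytoskeleton and motor list had 12 regions higher (7.14%) and 2 lower (1.19%) of 168, with a median of 0.17. Beside Eml6 these included Macf1, which links actin to microtubules, with 59.8 ± 1.23 CPM (0 min), 110 ± 7.19 CPM (15 min) and 82.2 ± 2.25 CPM (30 min), and Elmo1, an activator of Rac, with 36.4 ± 1.93, 63.5 ± 3.1 and 45.8 ± 5.79 CPM at 0, 15 and 30 min (SD, n = 3 each). These lay 5.76 and 44.7 kb from the start of the host. The adhesion, junction and synapse list had 5 higher and 1 lower of 187, with a median of 0.23. Its share called higher, 2.67%, was below that of all tested regions (4.29%). The calls were among others in Cntnap2 (a neurexin-family adhesion protein; log2 1.07), Tenm3 (a teneurin; 1.08) and Tjp1 (the tight junction protein ZO-1; 0.81). The Cntnap2 region, 7.02 kb before the end of a host of 2241 kb, held 10.6, 8.95 and 11.8 CPM (0 min), 24, 21.4 and 20.4 CPM (15 min) and 22, 19.4 and 21.6 CPM (30 min). Its rise was still called at 30 against 0 min (log2 1.01 ± 0.19, edgeR adjusted p = 0.00581), and both calls held without any single library. The call of Tjp1 was lost without 0 min library 1 or 15 min library 2.

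Genes over reported common fragile sites, stretches of the genome that break under replication stress and often lie in very long genes, had 16 of 196 regions called (8.16%), all higher, with a median of 0.29. Of all tested regions 8.25% were called, 4.29% as higher. In hosts over 500 kb of any role 5.57% rose and 0.0831% fell, with a median of 0.25. This list shares Pde4d and Cntnap2 with the lists above. In Immp2l, another of its genes, 6 of 21 tested regions rose at 15 against 0 min. These 6 are among the 16 calls of the list. All lay within chr12:41383039-41388552 or chr12:41727536-41729878, so they are close neighbours and not 6 separate sites along the gene. The chromatin and transcription list had 7 higher (4.86%) and 2 lower (1.39%) of 144, with a median of -0.08, near the 4.29% of all tested regions and the 1.57% of those inside long genes. Its smallest p values were in Phf14, a PHD finger protein (log2 1.46 ± 0.26, edgeR adjusted p = 0.000967), in Jarid2, a cofactor of Polycomb repressive complex PRC2 (0.69), and in Auts2, a neurodevelopmental gene (0.68). The Jarid2 call was lost without 0 min library 3, and that of Auts2 without 0 min library 1 or 3 or 15 min library 1 or 2. With no filter on low counts the Auts2 call was lost too (edgeR adjusted p = 0.0745). The Phf14 region, 11.1 kb before the end, held 3.72, 4.92 and 3.41 CPM (0 min), 9.67, 13.3 and 10.2 CPM (15 min) and 9.11, 8.2 and 6.87 CPM (30 min).

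Beside 8.25% of all tested regions and 5.26% of those inside long genes, the RNA-binding list had 1 of 58 regions called (1.72%), a fall in Tnrc6b, a partner of Argonaute in microRNA silencing (log2 -1.29 ± 0.37, edgeR adjusted p = 0.0275), and a median of 0.00. The next smallest p values were in Rbfox3 and Celf2, both splicing regulators, with changes of -0.40 and 0.42 that did not pass. The ubiquitin list had 1 of 52 called (1.92%), a fall in Rnf220, an E3 ligase (-1.82 ± 0.48, edgeR adjusted p = 0.0179), and a median of 0.01, while Hecw2 and Ube2e2 had changes of 0.66 and 1.22 that did not pass. The call of Tnrc6b was lost without any one of the 0 min libraries 1 and 3 and the 15 min libraries, and under scaling on gene ends. That of Rnf220 was lost without 0 min library 3 or 15 min library 1 or 2, and DESeq2 gave it no adjusted p. Over all lists together, 51 regions were called at 15 against 0 min, and this was 26 or 25 with 0 min library 1 or 3 left out and 22 or 19 with 15 min library 1 or 2 left out.

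Single hosts showed how far regions of 1 gene moved together. Pde4d (chr13:108654177-109955969, 1302 kb) had the most tested regions, 34 of 109, of which 23 had a log2 change above 0 at 15 against 0 min and 3 were called higher. All its regions together summed to 176, 185 and 193 CPM (0 min), 229, 236 and 215 CPM (15 min) and 214, 209 and 216 CPM (30 min), and both later groups lay wholly above 0 min. Dmd, the dystrophin gene and the longest host (2390 kb), had 16 tested regions, 1 of them higher, with sums of 105, 110 and 98.1 CPM (0 min), 127, 132 and 106 CPM (15 min) and 111, 120 and 128 CPM (30 min). Mtus2, a microtubule-associated protein (29 tested), had 2 regions lower and a median of -0.21. Tshz2, a zinc finger factor (26 tested), had sums of 228, 204 and 209 CPM at 15 min, against 236, 243 and 236 CPM at 0 min, lower in each library. Its tested regions did not fall together, with a median of 0.03, 14 of 26 above 0 and 0 called. Rnf220 (26 tested) and Arhgef3 (25 tested) had medians of -0.26 and 0.04. The sums of Rnf220 overlapped, with 361, 387 and 373 CPM at 15 min, against 368, 399 and 385 CPM at 0 min.

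Zfp993 (31 tested) belongs to a group of near-identical zinc finger genes on chromosome 4, whose reads the counting could have split, so its values are uncertain. The region farthest from both ends, 1125 kb into Ptprd, a receptor tyrosine phosphatase, held 2.12 ± 1.16 CPM (0 min), 2.65 ± 1.73 CPM (15 min) and 2.68 ± 1.14 CPM (30 min) (SD, n = 3 each), and these groups overlapped. Over the 147 hosts with 10 or more tested regions, the median change of a host at 15 against 0 min lay between -0.77 and 0.75 and was above 0 in 89. The hosts at either extreme were picked after their values were seen. In Dpp6 and Immp2l, 6 regions each were called higher at 15 against 0 min, and the sums of all their regions were 1.47 and 1.51 times those at 0 min. As in Immp2l, most of the called regions of Dpp6 were close neighbours, within chr5:27341921-27343857 or chr5:27419281-27423769. In Septin9, a cytoskeletal GTPase, 6 of 12 were called lower, between 36.6 and 94.8 kb from its end, and the sum was 0.705 times that at 0 min (159, 176 and 182 CPM at 15 min, against 266, 234 and 233 CPM at 0 min). Some of these called regions were close neighbours as well (chr11:117304409-117308834).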

How the data were processed

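The deposited table of the whole series holds raw read counts per region for 9 PRO-seq libraries, and the deposited lists give the other values used here, region coordinates on mm10. Per the submitters' processing notes the tools were HISAT2, featureCounts and DESeq2 1.26.0, and the region files are named for Tfit and muMerge. The strand counted, the handling of overlapping windows and other settings are not given in the sources used here. Of the regions inside long genes, 27.8% overlapped another window, so some reads may count more than once.

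Gene positions came from RefSeq (GRCm38.p6), and starts and strands from its promoter table, which covers 75.7% of these regions. Time was fitted as a factor over all regions and libraries with edgeR 4.0.16 in R 4.3.3 (filterByExpr, TMM factors between 0.971 and 1.02, glmQLFit and glmQLFTest, Benjamini-Hochberg over all tested regions, threshold 0.05), and the fitted coefficient of variation was 15.1%. CPM use the TMM-scaled library sizes, except in the paragraph on Firre and markers, where they use total counts. A standard error is the log2 change over the square root of F. The edgeR test was also run on simulated counts, with a common spread for all regions and independent windows. That simulation does not cover overlapping windows or regions that differ in spread, so error rates in these data were not checked. Library sums and ratios were compared with exact two-sided permutation tests. At this depth 3 counts are 0.502 to 0.787 CPM.

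Alternatives were DESeq2 1.42.0, other scalings and filters, a replicate block, and leaving out each library. Same-numbered libraries of different times had correlations of their deviations between -0.0555 and 0.198, so the numbers were not taken as pairs. The regions and host lists were chosen with earlier results of these data known. Named regions are, per comparison with 0 min, the 8 largest called changes in each direction with a mean of at least 20 counts and groups that did not overlap, and per list the 3 smallest p at 15 against 0 min, with a host named once. Named hosts are the 6 with most tested regions (a tie for the last was taken in alphabetical order), the longest, and that of the farthest region. Splits by facing gene, annotated inner start, host length and level were chosen after seeing the data.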

Additional observations from a re-analysis of the deposited data

Results flagged for a closer look

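In 6 named regions the change at 15 against 0 min and the change at 30 against 0 min differed by the test of 30 against 15 min itself (edgeR adjusted p under 0.05). These were Eml6 (log2 -1.75), Sptb (-1.36), Col23a1 (-1.19), Arhgef26 (-1.12), Hk1 (-0.79) and Sntb1 (-0.78), all lower at 30 than at 15 min. Hk1 was named for its fall at 30 min and the others for their rise at 15 min. Since the test uses the same libraries, this choice favours a fall from 15 to 30 min. Without any single library, the calls of Eml6 and Arhgef26 held. That of Sptb was lost without 30 min library 1, that of Col23a1 in 4 of the 9 omissions of 1 library, that of Sntb1 in 6 and that of Hk1 in 7.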

How the results depend on the processing

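Raising the length limit to 200 kb left 190, 47 and 10 regions called at 15 against 0 min, 30 against 0 min and 30 against 15 min, as fewer regions were counted. Scaling on gene ends gave 147 at 30 against 0 min, and at 15 against 0 min 496 higher and 45 lower (91.7% of calls higher, against 70.2%), with the median of all tested regions at 0.18 and that of regions inside long genes at 0.28. Windows over an inner start called lower numbered 2 with that scaling and 6 with only the compared groups in the fit; the cause was not tested. Leaving out 1 library, over the regions that then passed the filter, gave 167 to 554, 13 to 145 and 6 to 31 calls in these comparisons. The lowest counts came without 15 min library 2, 0 min library 1 and 30 min library 2, and the highest each time without 15 min library 3. It gave 0.31 to 0.47 for the log2 median over 100 kb minus that at 1 to 5 kb from the nearer end, 0.29 to 0.43 for that over 200 kb minus that at 1 to 15 kb from the start, and 0.26 to 0.35 for long genes minus genes under 20 kb, each highest without 15 min library 3. Calls in the host lists ranged from 19 to 74, those past a facing gene end from 26 to 49, windows over an inner start from 2 to 30, and calls of the named largest changes from 14 to 32. The Ptprd region reversed to -0.31 without 15 min library 2, against 0.33 over all libraries and 0.77 without 0 min library 2, and none was called. A replicate block, with numbers that only name libraries, gave 410, 102 and 28 calls. Depth limits these results, since 3844 of the 7276 tested regions had a mean under 20 counts.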
